A study of Mus musculus with 2 samples.

Results

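Lmo2, Nfe2, Itga2b and the globin genes Hba-x, Hba-a1 and Hbb-b1 are 6 genes of blood formation, and they were followed on 2 bead arrays of mouse RNA. All probes whose identifiers carry the NCBI Gene number of one of these genes were kept, without reference to their signals. The genes themselves were chosen with earlier results of these data known. Each gene had 1 probe, so the 6 genes are 6 of 8102 named genes, and their probes 6 of 9796 named probes. One array held total RNA of cells labelled ES at day 0 and the other total RNA of cells labelled EB at day 4. The labels leave ES and EB unexplained; the usual reading is embryonic stem cell and embryoid body, a floating aggregate of differentiating cells. The labels give no cell line, strain, genotype, medium or added factor for either sample. With 1 array per group there was no replicate and no test, the errors given below cover the beads within an array, and a difference between the groups cannot be told apart from one between cultures or array positions.

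Primitive blood is the first blood of the embryo and arises from mesoderm in the yolk sac, next to the first endothelial cells. Lmo2 is a small LIM-domain protein without DNA binding of its own that bridges GATA and E-box factors in one complex and is needed for this wave. Nfe2 is the large subunit of the factor NF-E2, which pairs with small Maf proteins and acts in erythroid cells and megakaryocytes. Itga2b is CD41, the alpha chain of the platelet fibrinogen receptor and an early surface mark of embryonic blood progenitors. Hba-x encodes the embryonic zeta chain of haemoglobin, Hba-a1 an alpha chain used from the embryo to the adult, and Hbb-b1 an adult beta chain.

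Of the 6 genes 3 had a start-site window in the RefSeq promoter table (build GRCm38.p6, 250 bases before to 50 after the annotated start): Hba-x, Hba-a1 and Itga2b. Lmo2, Nfe2 and Hbb-b1 had none there. The windows of the alpha-like globin genes, which were both higher in EB, are printed with that of Itga2b, which was not above background in either array. They are written 5′ to 3′ on the strand of the gene, and capitals mark, on either strand, GATAA (the core read by GATA factors), CACCC (read by Krüppel-like factors), CCAAT (the CCAAT box) and TATAA (the core of a TATA box).
Hba-x promoter, chr11:32276350-32276649, plus strand: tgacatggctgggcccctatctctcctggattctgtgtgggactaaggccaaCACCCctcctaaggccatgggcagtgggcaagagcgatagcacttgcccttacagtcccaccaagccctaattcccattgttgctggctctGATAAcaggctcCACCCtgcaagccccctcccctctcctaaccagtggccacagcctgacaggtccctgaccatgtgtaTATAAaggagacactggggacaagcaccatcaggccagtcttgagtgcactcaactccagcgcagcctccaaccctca
Hba-a1 promoter, chr11:32283422-32283721, plus strand: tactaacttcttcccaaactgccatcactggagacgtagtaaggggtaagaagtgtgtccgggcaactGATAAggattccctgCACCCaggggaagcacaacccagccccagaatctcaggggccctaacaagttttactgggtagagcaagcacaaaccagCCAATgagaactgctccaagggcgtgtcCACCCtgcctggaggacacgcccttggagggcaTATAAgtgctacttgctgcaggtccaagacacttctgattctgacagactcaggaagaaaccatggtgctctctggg
Itga2b promoter, chr11:102469834-102470133, minus strand: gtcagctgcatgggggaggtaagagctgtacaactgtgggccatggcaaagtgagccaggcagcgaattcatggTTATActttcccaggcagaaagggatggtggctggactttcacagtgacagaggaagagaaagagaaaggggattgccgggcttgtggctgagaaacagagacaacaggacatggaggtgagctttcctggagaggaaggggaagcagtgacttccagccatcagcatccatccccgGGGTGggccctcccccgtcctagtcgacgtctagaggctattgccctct

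The Hba-x window held GATAA from base -107, CACCC from bases -198 and -95, and TATAA from base -28, counted from the annotated start. In the Hba-a1 window GATAA began at base -182, CACCC at bases -167 and -60, CCAAT at base -88 and TATAA at base -27. Both windows thus have a GATA core and CACCC letters upstream of a TATA core at a like distance from the start. Itga2b had TATAA on the reverse strand from base -176 and CACCC on the reverse strand from base 2, and the GATA core and the CCAAT box are not in its window. Over all 32851 windows listed, the GATA core occurred in 25.4%, the CACCC letters in 57.5%, the CCAAT box in 37.4% and the TATA core in 24.9%, and 3.63% held the GATA, CACCC and TATA letters together. No match overlaps another in the windows printed. A longer NF-E2 core, TGAGTCA, occurred in 5.2% of windows and in none of the 3 printed. The window of Hba-a2, the second alpha globin gene, was identical to that of Hba-a1 in 297 of 297 overlapping bases at an offset of 3. A match of letters is a description of these windows and not a measured binding site.

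The data behind the values can be put briefly. Both arrays carry 46643 probes, with a median of 38 beads per probe in ES and 37 in EB, and per the file headers they lay on the same chip. Signals were quantile normalized and compared as log2 EB minus ES. The detection score deposited for EB set a signal floor of 230.0 normalized intensity units, used for both arrays; above it 28.4% of probes lay in each array, which the normalization makes nearly equal. Where the dimmer signal was under the floor, the ratio is a lower bound taken against the floor and written "at least". No ratio is given for a gene under the floor in both arrays. The median bead-level error above the floor was 4.49% of the signal in ES and 4.39% in EB. As a check of the labels, the pluripotency gene Nanog read 14530 in the ES array and 2760 in the EB array. All 5 measured pluripotent cell markers and 12 of 14 genes of the longer pluripotency list were lower in EB by at least 2-fold on measured signals. Among named genes above the floor in at least 1 array, 5.35% were lower by that size. Only 2 of these markers and 7 genes of the longer list were above the floor in both arrays. The others passed it only through ES and so had to be lower. The primitive streak markers Eomes and Lhx1 were higher, as given below. The lists were chosen with earlier results of these data known, so their counts are no independent check of the labels. In the pluripotency list the largest measured differences were those of Klf2 (36.2-fold lower), Spp1 (at least 23.0-fold), Zfp42 (at least 22.8-fold) and Dppa4 (18.6-fold). The cytoskeletal gene Actb differed by 0.04 ± 0.06 (log2, bead-level standard error).

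Of the 6 blood genes 4 were at least 2-fold higher in EB on their measured signals, against 1.78% of the 8102 named genes (144 genes). None of the 6 was lower by that size, against 2.55% of named genes. The median log2 difference of the 6 was 1.29 on measured signals, and that of all named genes 0.02. The 6 genes were chosen with earlier results of these data known, so these values describe them and are not support. All 6 were under the floor in ES, and Lmo2, Hba-x, Hba-a1 and Nfe2 passed it only through EB, so these 4 had to differ. Among the 4530 named genes under the floor in ES, 6.51% (295 genes) were above it in EB and 0.905% (41 genes) were also at least 2-fold higher. In RNA of a whole culture, more blood-forming cells and more of these transcripts per cell cannot be told apart.

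**Figure D1:**
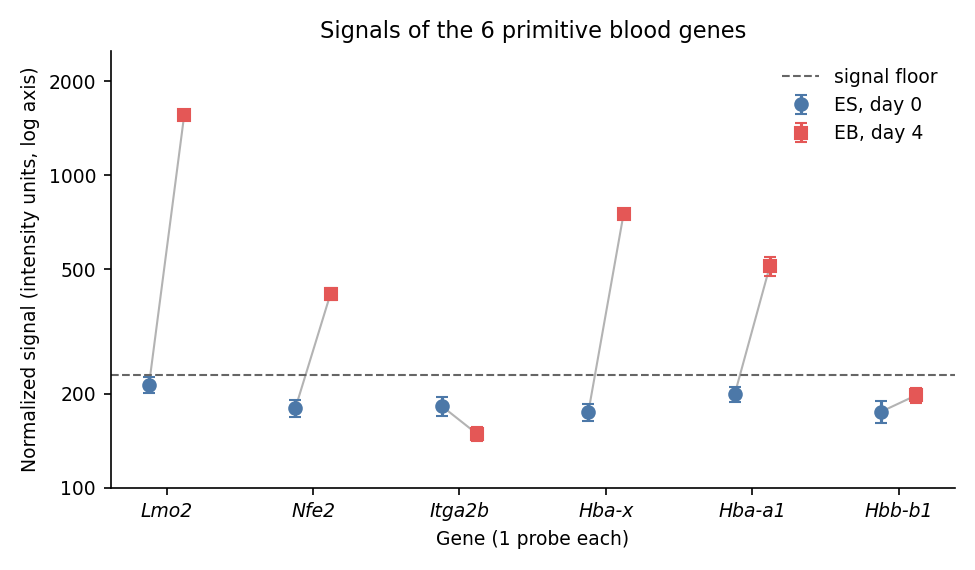
Normalized signal (log axis, intensity units) of the 1 probe of each gene in ES at day 0 (circles) and EB at day 4 (squares); bars are bead-level standard errors within an array and the dashed line is the signal floor of 230.0. All 6 ES signals sit under the floor, from 174.7 to 213.8, and in EB Lmo2, Hba-x, Hba-a1 and Nfe2 sit above it.

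Lmo2 (identifier scl016909.6_211-S) had a normalized signal of 213.8 ± 13.0 (bead-level standard error, 40 beads) in ES and 1554 ± 53.4 (35 beads) in EB. Its EB signal stood well over the floor, while its ES signal was just under it. The log2 difference was 2.86 ± 0.10 and the ratio at least 6.76-fold. Since the ES signal was under the floor, the measured difference is taken against background.

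Nfe2 (scl018022.1_253-S) gave 180.2 ± 11.3 (35 beads) in ES and 418.4 ± 18.1 (44 beads) in EB. The EB signal was less than 2 times the floor, so that the ratio could be given only as at least 1.82-fold although the measured log2 difference was 1.22 ± 0.11. Set to the floor in ES, Nfe2 had a log2 difference of 0.86 and did not reach 2-fold.

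Itga2b (scl016399.1_7-S) read 182.4 ± 13.3 (28 beads) in ES and 148.7 ± 7.99 (34 beads) in EB, with an EB detection score of 0.33. Both signals were under the floor, so no ratio is given and the measured log2 difference of -0.29 ± 0.13 lies between values of background size. The CD41 transcript was not detectable with this probe in either sample, which does not show that it is absent.

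Among the globins, Hba-x (scl015126.2_17-S), the embryonic alpha-like chain, had 174.7 ± 10.9 (36 beads) in ES and 749.1 ± 26.0 (38 beads) in EB. Its log2 difference was 2.10 ± 0.10, and the ratio at least 3.26-fold. The ES signal lay at the middle of that array, at percentile 51.0 of all probes, and the EB signal at percentile 88.1.

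Hba-a1 (scl015122.2_7-S) had 199.8 ± 11.1 (44 beads) in ES and 513.2 ± 35.6 (26 beads) in EB. That is a log2 difference of 1.36 ± 0.13 and a ratio of at least 2.23-fold. Both alpha-like globins were under the floor in ES, so their ratios are lower bounds from separate probes and have no order. Because Hba-a1 and Hba-a2 are near-identical, as their promoter windows show for the upstream sequence, this probe may read both, and Hba-a2 had no named probe.

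Hbb-b1 (scl0015129.1_300-S) had 175.3 ± 13.7 (31 beads) in ES and 197.9 ± 11.2 (23 beads) in EB, with an EB detection score of 0.94. Neither signal reached the floor, and the log2 difference was 0.17 ± 0.14. The adult beta chain was thus not detectable by this probe in the sample in which both alpha-like chains were above the floor. Adult beta globin genes differ between mouse strains and are close copies of each other, and the strain is not given here.

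**Figure D2:**
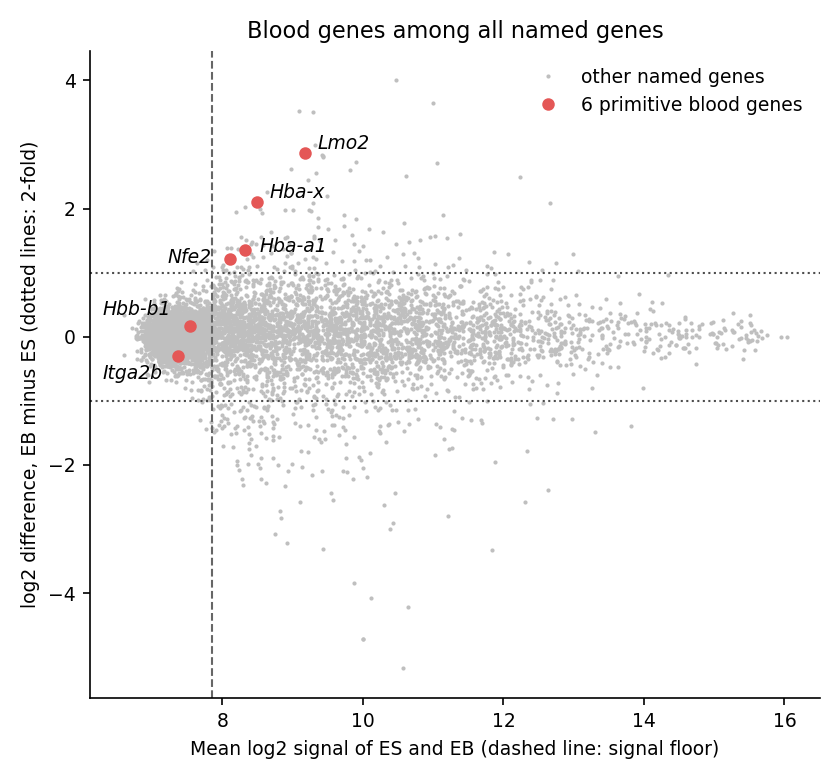
Log2 difference, EB minus ES, against the mean log2 signal of both arrays for all 8102 named genes (grey points, brightest probe of each gene), with the 6 blood genes as large points; dotted lines mark 2-fold and the dashed line the signal floor. Lmo2 (2.86), Hba-x (2.10), Hba-a1 (1.36) and Nfe2 (1.22) lie above the upper dotted line at low mean signal, and Hbb-b1 (0.17) and Itga2b (-0.29) lie among the dim genes around 0.

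Olfactory receptor genes, which are not expected to be expressed in these cells, gave a picture of background on the same arrays. Their 343 probes had signals from 99.9 to 224.6 in ES, with a median of 152.6 and a 95th percentile of 188.1, and 0 of them passed the floor. In EB they ran from 87.6 to 234.0, with a median of 152.9, and 1 passed it. The ES signals of Hba-x, Hbb-b1, Nfe2 and Itga2b lay under that 95th percentile, and those of Hba-a1 and Lmo2 lay above it and within the range. In EB the signals of Lmo2, Hba-x, Hba-a1 and Nfe2 exceeded every olfactory receptor probe, while those of Hbb-b1 and Itga2b fell within their range. The highest receptor probe in EB (234.0) lay close to the floor of 230.0. This split in EB therefore repeats the floor call on the same EB values and is no separate check of it. Differences of these receptor probes ran from -0.48 to 0.59 on the log2 scale, and those of Itga2b and Hbb-b1 lie inside that range.

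**Figure D3:**
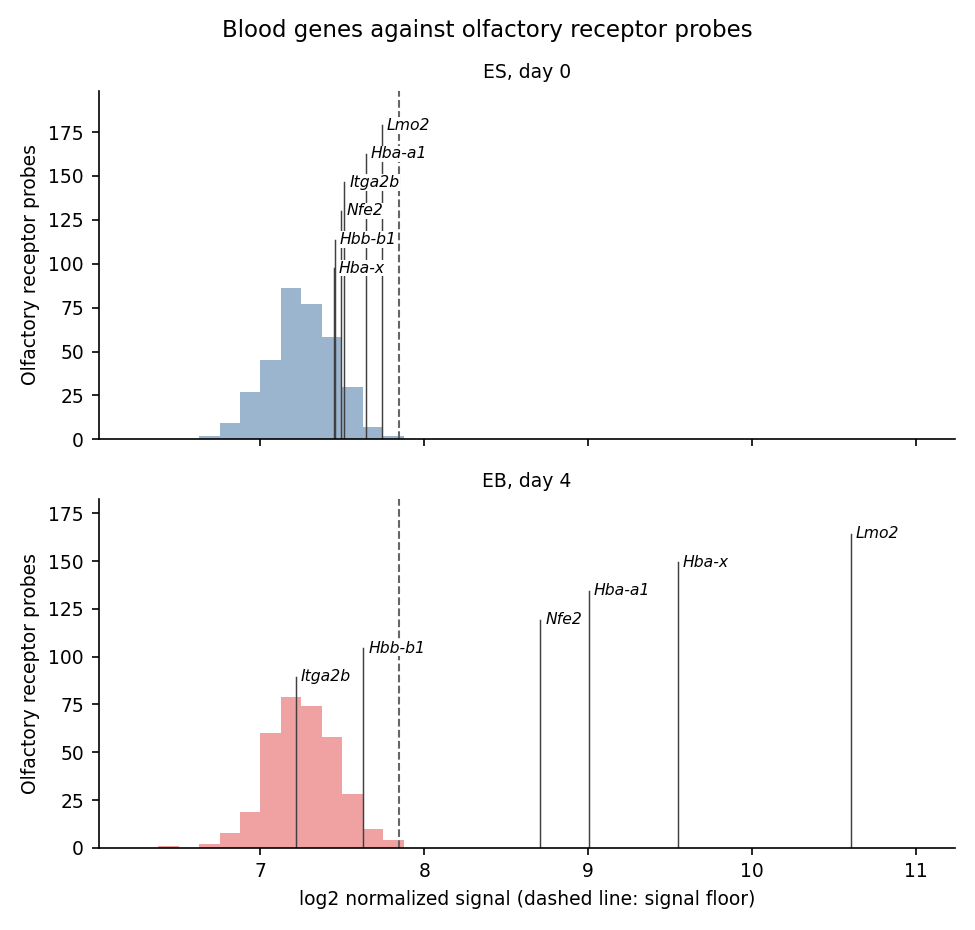
Histograms of log2 normalized signals of 343 olfactory receptor probes in ES (upper panel) and EB (lower panel), with the 6 blood genes as labelled vertical lines and the signal floor dashed; line heights only separate the labels. In ES all 6 genes lie within the histogram's range, and in EB Nfe2, Hba-a1, Hba-x and Lmo2 lie to its right.

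The globin list had 15 entries, of which 5 had a named probe. Besides the 3 chains above these were Hbb-y, the embryonic epsilon-y beta-like chain, and Hbb-b2, an adult beta chain. Hbb-y had 128.8 in ES and 215.1 in EB, with a log2 difference of 0.74 ± 0.15 and an EB detection score of 0.98. Both signals were under the floor, so no ratio is given, although the difference exceeded the highest of the olfactory receptor probes (0.59). Hbb-b2 had 159.5 in ES and 190.3 in EB, a difference of 0.26 ± 0.12 that lay within their range. Of the 5 globins only Hba-x and Hba-a1 were thus above the floor, both through EB. The embryonic beta-like chain Hbb-bh1 was not among the named genes and was not analysed here.

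Of 18 genes listed as partners of Lmo2 or as its LIM-only relatives 9 had a named probe, and all 9 were above the floor in at least 1 array. None was at least 2-fold higher and 1 was lower, against 3.72% higher and 5.35% lower among the 3867 of 8102 named genes above the floor. Over the 7 above the floor in both arrays the median log2 difference was 0.24, against 0.06 over all 3313 such named genes. The E-protein gene Tcf12 had 316.3 in ES and 579.0 in EB (0.87 ± 0.10), and the E-protein Tcf4 3426 and 4049 (0.24 ± 0.07). Ldb2, a LIM-binding adaptor related to Ldb1, was under the floor in ES and had 299.8 in EB (at least 1.30-fold higher). The single-stranded DNA-binding proteins that stabilise this adaptor differed among themselves. Ssbp3 gave 0.92 ± 0.06, Ssbp2 0.39 ± 0.09 and Ssbp4 -1.02 ± 0.08, the last with signals of 4159 in ES and 2052 in EB. Cbfa2t3, a corepressor of the complex also called Eto2, was under the floor in ES and at least 1.41-fold higher. The corepressor subunits Kdm1a and Rcor1 gave -0.70 ± 0.07 and 0.04 ± 0.09. Tal1, Gata1, Gata2 and Ldb1, the other core members, were not among the named genes and were not analysed here.

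The list of NF-E2 partners and relatives had 9 entries and 4 named probes, all above the floor in both arrays and none past 2-fold. Of the 8102 named genes 3313 were above the floor in both arrays. Among those above it in at least 1 array, 3.72% were higher and 5.35% lower by 2-fold. None past 2-fold among 4 genes is near these shares and does not set the list apart. Mafg, a small Maf partner of Nfe2, had 2436 in ES and 2145 in EB (-0.18 ± 0.07). It was thus measured well above the floor in both samples, unlike Nfe2 itself. Bach1, a repressor that competes for the same sites and is released by heme, had 273.1 and 445.0 (0.70 ± 0.09). Bach2 gave 0.49 ± 0.11 and Nfe2l1, a relative of Nfe2 present in most tissues, -0.32 ± 0.09.

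Further blood transcription factors numbered 10 measured of 20 listed, 3 of them above the floor and none past 2-fold. Over all named genes 3867 of 8102 passed the floor, and of these 3.72% were higher and 5.35% lower by 2-fold. Runx1 and Bcl11a passed the floor only through EB and so had to be higher, and Klf3 was above it in both arrays. Runx1, needed for definitive blood, was under the floor in ES (179.2) and read 342.1 in EB, which is at least 1.49-fold higher (0.93 ± 0.14). Bcl11a was under the floor in ES and at least 1.47-fold higher, with a difference of 0.78 ± 0.11, and Klf3 gave -0.82 ± 0.06. Fli1, an ETS factor of blood and endothelium, was under the floor in both (147.9 and 202.4, difference 0.45 ± 0.13). Erg, Ets1, Ikzf1, Cebpa, Mecom and Sox6 were also under it in both arrays.

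Genes that serve the making of haemoglobin and of the red cell lay past 2-fold on both sides. In the heme list 4 of 16 entries were measured and 3 passed the floor. Abcb6, a porphyrin transporter, had 369.5 in ES and 1076 in EB (2.91-fold higher), Tmem14c, which moves a heme precursor into mitochondria, gave 0.77 ± 0.07, Slc25a39 -0.32 ± 0.06, and the synthesis enzyme Cpox was under the floor in both. Of 31 erythroid membrane, receptor and iron genes 9 were measured and 5 passed the floor, 2 of them higher and 1 lower by 2-fold. For both lists the shares to set beside these counts are 3.72% higher and 5.35% lower, over all named genes above the floor. Of all 8102 named genes 3867 passed the floor. Sptb, the erythroid beta spectrin, had 288.6 and 744.8 (2.58-fold higher) and Fth1, the ferritin heavy chain, 5211 and 12702 (2.44-fold higher). Ftl1, the ferritin light chain, gave -0.17 ± 0.09. Dmtn, the spectrin and actin binding protein dematin, had 1416 and 330.7 (4.28-fold lower). Other tissues also make Dmtn, and neither list is limited to genes of red cells alone. Ank1 and Car1 were under the floor in both.

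**Figure D4:**
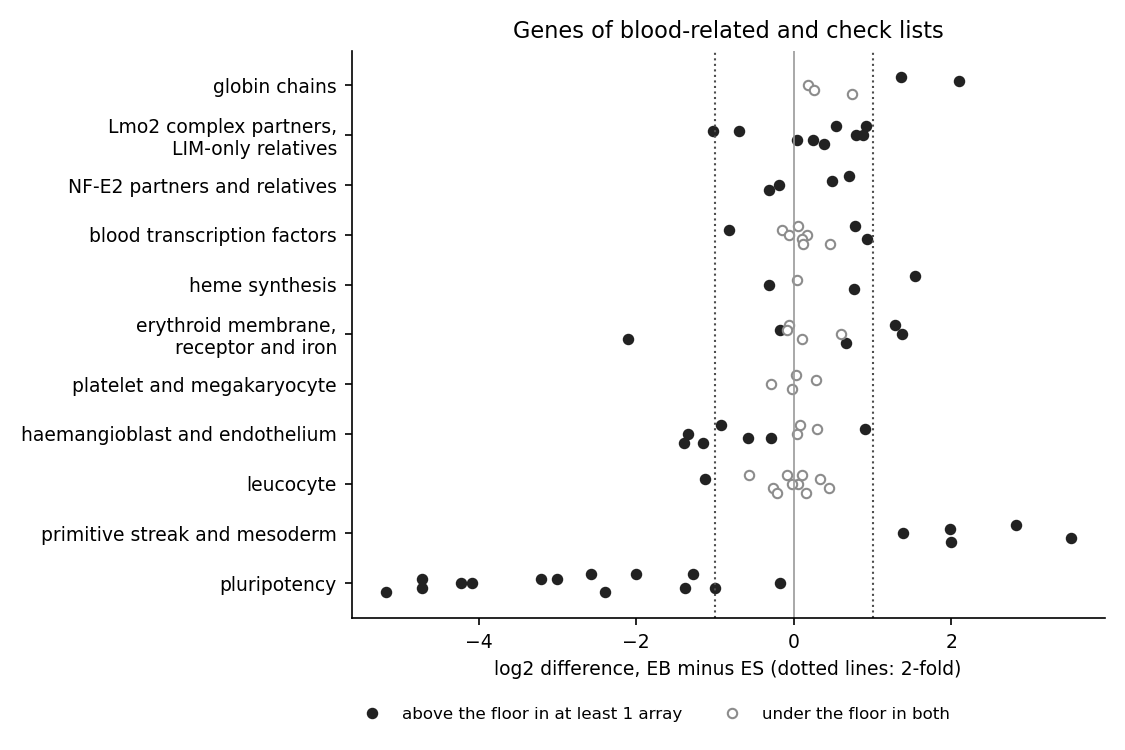
Log2 difference, EB minus ES, of every measured gene of 9 blood-related and 2 check lists, 1 point per gene at its brightest probe and spread vertically only for legibility; filled points passed the signal floor in at least 1 array, open points in none, and dotted lines mark 2-fold. The filled globin points are Hba-x (2.10) and Hba-a1 (1.36), the platelet list has open points alone, and the streak and pluripotency lists lie on opposite sides.

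Markers of cells that could share the culture were read beside these values. The share to set beside their counts above the floor is 3867 of all 8102 named genes. For megakaryocytes 0 of the 4 defining markers had a named probe, and all 4 measured genes of the platelet list, Itga2b among them, were under the floor in both arrays. Of 6 defining leucocyte markers 5 were measured and 0 passed the floor, with Ptprc, the pan-leucocyte CD45, at 155.8 in ES and 146.4 in EB. In the longer leucocyte list 1 of 11 measured genes passed it, the lysosomal gene Cd68, with 344.4 in ES and 158.3 in EB. Among fibroblast genes, read for feeder cells, 5 of 11 measured passed the floor, the matrix protein gene Fbln2 being 6.04-fold higher and the collagen gene Col1a1 2.58-fold lower. The median of these 5 was -0.56, against 0.06 over all named genes above the floor. Of 4 defining fibroblast markers 3 were measured and 1 passed the floor, Col1a1. Col1a2 (179.9 in ES and 168.7 in EB) and Col3a1 (152.4 and 145.7) were under it in both arrays. The 1 measured marker of the erythroid set was Hbb-y, given above. In the endothelial list 7 of 10 measured genes passed the floor, 0 were higher and 3 lower by 2-fold, where 3.72% and 5.35% of all named genes above the floor were: Pecam1, which ES cells also make (2.53-fold lower), Mmrn2 (at least 1.83-fold) and Robo4 (at least 2.12-fold). Egfl7, a secreted endothelial factor, had 480.9 in ES and 901.5 in EB (0.91 ± 0.12). Mmrn2 and Robo4 passed the floor only through ES and so had to be lower. Over the 5 endothelial genes above the floor in both arrays the median was -0.58, against 0.06 over all such named genes. The part of these cell types in the result was not tested.

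Genes of the streak and early mesoderm, from which primitive blood arises, had 5 named probes of 35 entries, and all 5 were at least 2-fold higher on measured signals, against 3.72% of named genes above the floor. The list was chosen with earlier results of these data known, so this count is a description and not support. Lhx1, Wnt5a and Gata4 passed the floor only through EB and so had to differ, and Eomes and Fst were above it in both arrays. Lhx1, itself a LIM protein, was at least 9.16-fold higher, Eomes 7.06-fold, Fst 3.95-fold, Wnt5a at least 3.20-fold and Gata4 at least 1.97-fold. In the LIM-domain list 5 of 13 measured genes passed the floor, and Lmo2 and Lhx1 were the 2 past 2-fold. In the integrin list that holds Itga2b, 4 of 10 passed the floor, 0 were higher and 2 lower by 2-fold, Itga6 (2.75-fold) and Itgb4 (at least 2.08-fold). Over the 3867 of 8102 named genes above the floor the shares were again 3.72% higher and 5.35% lower. Lmo2, Lhx1 and Itgb4 passed the floor through 1 array only. By closeness of the log2 difference to that of Lmo2, over these 2 samples alone, the 5 nearest genes above the floor were Fgf10 (2.84), Eomes (2.82), Klhl6 (2.80), Hoxb2 (2.99) and Vldlr (2.73). The ES signals of Lmo2 and Hoxb2 were under the floor, so their ratios are lower bounds, and the closeness is one of measured values and not of ratios.

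The neighbourhood of each gene was read from the gene order of the RefSeq table (GRCm38.p6), taking the 3 nearest protein-coding genes on each side. Hba-x and Hba-a1 are direct neighbours in the alpha globin cluster. Nprl3, the gene next to Hba-x whose introns hold the enhancers of that cluster, read 231.7 in ES and 273.8 in EB, with a difference of 0.24 ± 0.13. The difference of Nprl3 was thus smaller than those of both globins beside it. Near Lmo2, the direct neighbour Caprin1 gave 0.05 ± 0.10 and Cd59b, farther off, -0.21 ± 0.12. Near Nfe2, Hnrnpa1 gave 0.37 ± 0.09 while Cbx5 was under the floor in both. Around Itga2b, Gpatch8 (-0.17 ± 0.07), Fzd2 (0.25 ± 0.10) and Slc25a39 were under 2-fold, and Fam171a2, the direct neighbour, was under the floor in ES and read 455.3 in EB, at least 1.98-fold higher (1.06 ± 0.07). The other neighbours of Lmo2 and Nfe2 had no named probe, and none of those measured reached 2-fold. Among named genes above the floor 3.72% were higher and 5.35% lower by that size, so this does not set these neighbours apart.

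The size of each difference depends on how background is treated, because all 6 genes were dim in ES. With normexp background correction, which subtracts a modelled background, the log2 difference was 3.29 for Lmo2, 2.60 for Hba-x, 1.71 for Hba-a1 and 1.59 for Nfe2. In the deposited series value table, whose low end is stretched downward in a way not given in the sources used here, it was 5.24, 5.06, 3.59 and 3.65. With signals set to the floor it was 2.76, 1.70, 1.16 and 0.86. Nfe2 alone crossed the 2-fold size between these settings. The table's own values were 36.2 in ES and 1371 in EB for Lmo2, 17.0 and 566.6 for Hba-x, 27.4 and 330.6 for Hba-a1, and 18.8 and 235.7 for Nfe2. Hbb-b1 had 17.2 and 26.4 there and Itga2b 19.6 and 11.2, so the globins and factors above the floor in EB were also the bright ones of the table.

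**Figure D5:**
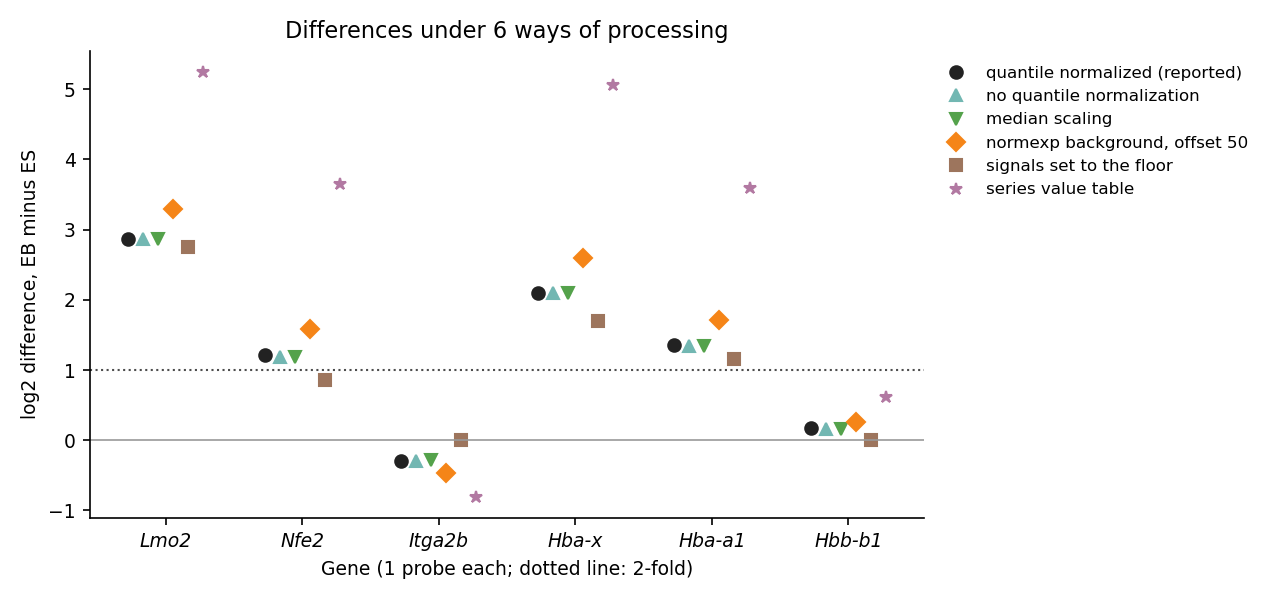
Log2 difference, EB minus ES, of the 6 genes under 6 ways of processing, 1 marker per setting; the dotted line marks 2-fold. Lmo2, Hba-x and Hba-a1 stay above the line in all 6, Nfe2 drops to 0.86 with signals set to the floor, and Itga2b and Hbb-b1 stay under it in all 6.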

How the data were processed

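Per the labels, total RNA of 1 ES and 1 EB sample was purified on spin columns and labelled with biotin. The deposited signal intensity of a probe is the mean over its beads, exported per the file headers from BeadStudio 2.3.41 with normalization set to none. The submitters' processing notes also name RMA and limma, with no role given. The authors' deposited spread between beads was read as a standard error, since its slope on the bead number (log scales, signals of at least 1000) was -0.44 in ES and -0.47 in EB, where a standard error gives -0.5. The deposited detection score (0 to 1) was found in the EB file alone; its limit of 0.99 set the floor. Identifier numbers of at least 10000 with zero padding were read as NCBI Gene numbers and named through RefSeq (GRCm38.p6); 9796 of 11857 such probes (82.6%) matched, 21.0% of all probes. A gene was represented by its probe with the highest mean log2 signal.

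Intensities were quantile normalized and put on the log2 scale (Python 3.11.15, numpy 2.4.6; tested on simulated data). The floor applied to both arrays replaces a test of detection in ES. Alternatives were no quantile normalization, median scaling, normexp (limma 3.58.1 in R 4.3.3, offset 50), the deposited series table of processed intensity, signals set to the floor, the mean of a gene's probes, a 1.5-fold limit and other detection rules. The 6 genes, the lists, the rule for named genes and the motifs were chosen with earlier results of these data known. The text names the 6 genes, detected globins, Lmo2 and NF-E2 partners, up to 4 members of each further list with the largest differences past 2-fold, the 5 genes nearest to Lmo2, and Nanog and Actb; other listed genes, the neighbours and the genes under the floor were named after their values were seen. Without replicates no test was run.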

Additional observations from a re-analysis of the deposited data

How the results depend on the processing

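No paired analysis was possible because ES and EB are represented by a single array each. Leaving out an array would have left nothing to compare. Without quantile normalization and with median scaling the 6 log2 differences moved by less than 2 bead-level errors. The mean over probes could not move them, since each of the 6 genes has 1 probe. With normexp they were 3.29 (Lmo2), 1.59 (Nfe2), 2.60 (Hba-x) and 1.71 (Hba-a1); with the series table they were 5.24 (Lmo2), 3.65 (Nfe2), -0.80 (Itga2b), 5.06 (Hba-x), 3.59 (Hba-a1) and 0.62 (Hbb-b1); and with signals set to the floor 0.86 (Nfe2), 0 (Itga2b) and 1.70 (Hba-x). Of the blood genes 4 were higher by 2-fold, 3 after signals had been set to the floor, and 0 when both arrays had to pass it, which no gene of the 6 does. The named genes higher (144) and lower (207) became 527 and 468 with the series table, and 479 and 463 at 1.5-fold; the lower count was 134 with both arrays above the floor. The 4 differences of the blood genes past 2-fold kept their sign in each setting that retained these genes, which the rule of both arrays above the floor did not. That sign was fixed in advance with signals set to the floor, the mean over probes, a 1.5-fold limit and other detection rules. The remaining settings process the same 2 arrays in other ways, so a kept sign there is no independent check. The depth of a bead array is its signal over background, and all 6 genes lacked it in ES.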
